A study of Danio rerio with 6 samples.

Results

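The transcriptome described here is that of the zebrafish head at 2 days post-fertilization (dpf) in embryos kept in the solvent DMSO, without a test compound. It was taken from the 3 libraries labelled DMSO, of 6 in the series; the other 3 came from embryos exposed to 6PPD, a tire rubber antioxidant, and are not analysed here. The DMSO exposure ran from 10 hours post-fertilization (hpf) until the heads were cut off, and each replicate pooled 150 heads, so a value is an average over many embryos. Until 24 hpf embryos were kept at 28 °C in egg water containing methylene blue, and 0.003% PTU, which blocks melanin synthesis, was present from 24 hpf in all of them. The labels give the tissue as brain and call the replicates biological, but do not say whether they came from separate clutches. Poly(A) RNA was sequenced from stranded libraries, and the deposited table lists 32057 genes in FPKM, fragments scaled to gene length and to the number of mapped fragments. The depth of the libraries is unknown. Values given in threes are those of DMSO replicates 1, 2 and 3, in that order.

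At this stage the zebrafish brain holds cycling progenitors beside differentiating neurons, the first photoreceptors of the eye are maturing, and the lens fibres are filling with crystallins. The head is covered by a thin keratin-rich epidermis and is supplied by a beating heart through a young set of vessels, in which red cells carry embryonic globins. Cartilage and muscle of the jaw are forming. A dissected head contains all of these tissues, and in such a bulk sample fewer cells of a type and less RNA per cell cannot be told apart.

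A mean of at least 1 FPKM was reached by 15153 of the 32057 genes, and these held 99.4% of the summed FPKM. At least 10 FPKM was reached by 5675 genes, at least 100 FPKM by 573 and at least 1000 FPKM by 79. The 79 highest held 30.2% of the sum. The median gene length was 2428 bases at 1 FPKM and above, and 1394 bases at 1000 FPKM and above. The FPKM of a library summed to 472121, 458779 and 434258. DMSO replicate 3 had the lowest sum and the flattest distribution, since 326 genes held 50% of its FPKM against 232 in replicate 1 and 246 in replicate 2. It also had the most genes at 1 FPKM or more, 15556, against 14879 in replicate 1 and 14795 in replicate 2.

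Most of the 30 highest genes encode ribosomal proteins, mitochondrial mRNAs, keratins and actins. They comprised 13 genes for cytosolic ribosomal proteins, 6 mitochondrial mRNAs, 3 keratins, 2 β-actins and 6 others. The highest was mt-co1, the mitochondrial gene for subunit 1 of cytochrome c oxidase, with 8195, 6913 and 6937 FPKM. The second was eef1a1l1, a translation elongation factor, with 5292, 4946 and 4382 FPKM. The β-actin gene actb2 had 3483, 3083 and 2891 FPKM and its relative actb1 had 2367, 2007 and 1914 FPKM. The other highly expressed genes outside these families included slc25a5, the mitochondrial ADP/ATP carrier, with a mean of 2272 ± 208 FPKM (SD, n = 3, as for all means below). They also included tpt1 (2200 ± 320 FPKM), the constitutive chaperone gene hspa8 (1856 ± 264 FPKM) and rack1, a scaffold protein of the ribosome (1852 ± 235 FPKM).

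**Figure D1:**
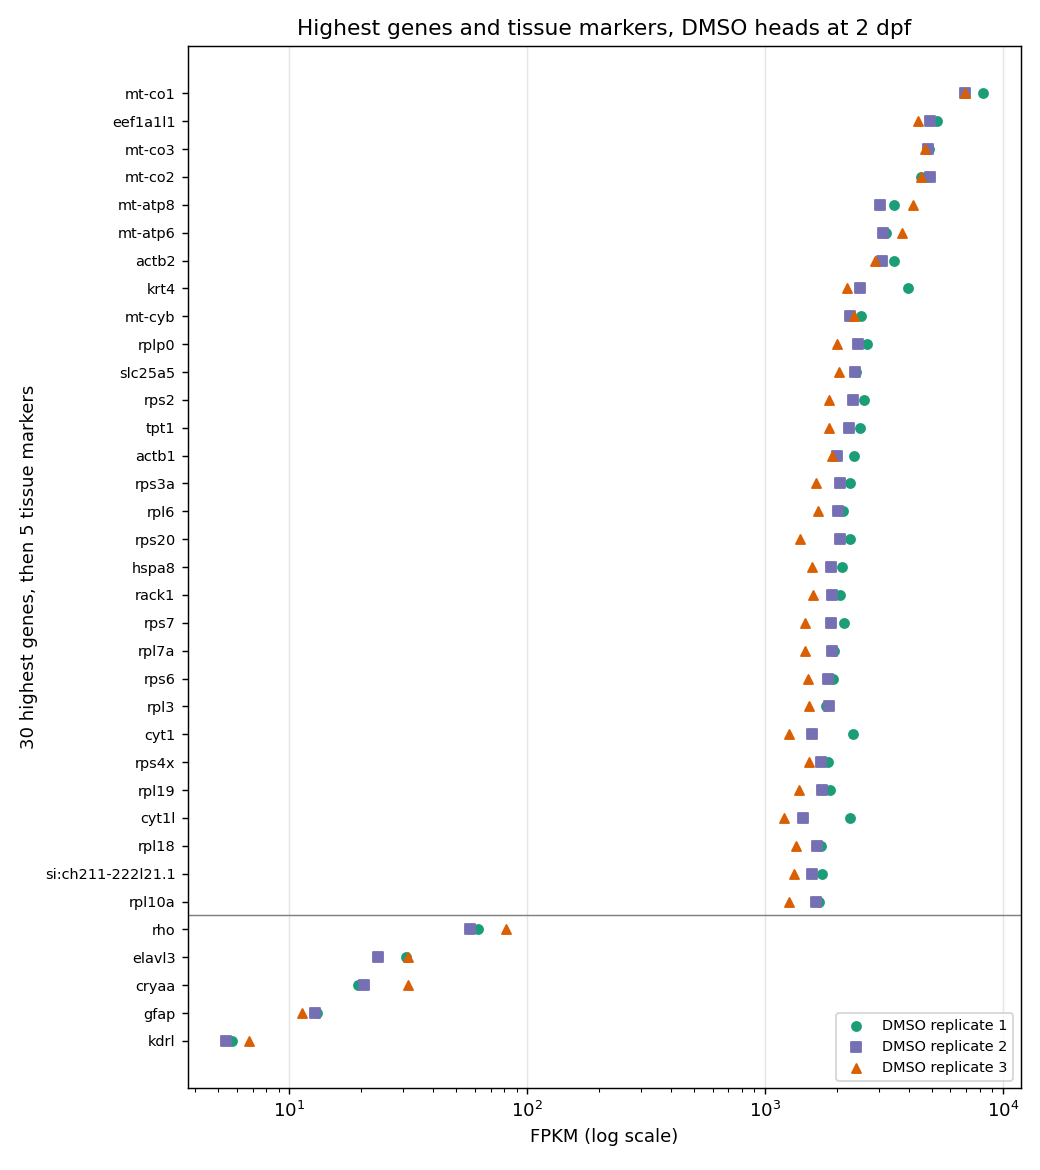
FPKM (log axis) of the 30 genes with the highest mean and, under the line, of 5 tissue markers, with a point for each DMSO library. The highest gene, mt-co1, had 8195, 6913 and 6937 FPKM, and the keratins krt4, cyt1 and cyt1l stand out by the distance of DMSO replicate 1 from the others.

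The 13 mitochondrial mRNAs together took 7.21%, 6.88% and 7.80% of the summed FPKM, and ranged from a mean of 7348 FPKM for mt-co1 to 390 FPKM for mt-nd3 (410, 434 and 327 FPKM), a subunit of complex I. Next to mt-co1 stood mt-co3 (4894, 4847 and 4672 FPKM) and mt-co2 (4504, 4904 and 4527 FPKM), the other mitochondrial subunits of cytochrome c oxidase. The ATP synthase genes mt-atp6 and mt-atp8 averaged 3367 ± 334 and 3553 ± 571 FPKM. These neighbours overlap on the mitochondrial genome, and mt-atp8 is 165 bases long, so its value per length is uncertain.

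All 83 genes with rpl or rps symbols of cytosolic ribosomal proteins were above 1 FPKM, with a median of 945 FPKM. Together they took 18.9%, 18.9% and 15.2% of the summed FPKM. The highest was rplp0, of the ribosomal stalk, with 2677, 2452 and 2001 FPKM. DMSO replicate 3 was the lowest library in 81 of the 83 genes, and this count was also 81 after rescaling to TPM, in which all libraries have the same total, and after median-ratio scaling of the libraries. Over all 15153 genes, DMSO replicate 3 was the lowest library in 23.3% as deposited, 14.1% in TPM and 40.3% after median-ratio scaling.

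By annotated class, protein-coding genes took 98.5%, 98.5% and 98.6% of the summed FPKM. Of 25107 protein-coding genes, 14748 (58.7%) had a mean of at least 1 FPKM, against 405 of 6950 genes (5.83%) in all other classes together. Processed transcripts held 0.619% of the sum, mitochondrial tRNAs 0.473%, long intergenic RNAs (lincRNAs) 0.2%, antisense RNAs 0.0475% and mitochondrial ribosomal RNAs 0.0272%. Because poly(A) RNA was selected, and FPKM of genes shorter than a sequenced fragment is poorly defined, the levels of tRNA, rRNA, miRNA and snoRNA genes do not give their abundance in the cell.

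Most of the processed-transcript share came from rps20, a ribosomal protein gene that the annotation places in that class, with 2275, 2063 and 1401 FPKM. The next of that class, BX005228.2, had 117, 120 and 134 FPKM. Below it stood si:ch1073-325m22.2 with 117, 128 and 91.4 FPKM. The highest tRNA gene lies on the mitochondrial genome at MT:7976-8046, between mt-co1 and mt-co2, and had 925, 962 and 747 FPKM. It is annotated on the strand opposite to these 2 mRNAs, and the labels and notes do not say whether counting used strand.

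Of 1466 lincRNA genes, 151 reached 1 FPKM. The highest was CT027638.1, with 83.7, 51.3 and 35.3 FPKM, highest in DMSO replicate 1. CU467822.2 followed with 49.0, 60.3 and 59.4 FPKM and BX465834.1 with 36.4, 45.1 and 38.2 FPKM. Of the 8 highest lincRNAs only oip5-as1, a conserved noncoding RNA, carries a symbol that is not a clone name. It had 11.2, 18.5 and 28.2 FPKM, highest in DMSO replicate 3. Of 672 antisense genes, 36 reached 1 FPKM, and the highest, BX248324.1 (36.8, 46.2 and 28.6 FPKM), spans the neuronal progenitor gene sox11b on the other strand, so reads of the pair may not be separated.

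Protein-coding genes of chromosome 4 were less often expressed than those elsewhere in the genome. Of 1475 such genes, 516 (35.0%) reached 1 FPKM, against 14232 of 23632 (60.2%) on all other chromosomes. Chromosome 4 carried 2.01% of the summed FPKM. The highest shares among nuclear chromosomes were those of chromosome 3 (6.99%) and chromosome 19 (6.95%), which carry actb2 and eef1a1l1.

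The 6 genes chosen to mark brain, eye, lens, skin and vessels were all expressed. Skin was marked by krt4 (ENSDARG00000017624, chromosome 6, 39308498 to 39313027, GRCz11), an epidermal keratin, which had 3980, 2511 and 2209 FPKM and ranked 8 of all genes. The rod opsin gene rho (ENSDARG00000002193, chromosome 8, 54076195 to 54077740) had 61.8, 57.6 and 81.0 FPKM. The neuronal RNA-binding protein gene elavl3 (ENSDARG00000014420, chromosome 3, 46800190 to 46818001) had 30.9, 23.5 and 31.5 FPKM. The skin marker was far above the neuronal marker, but these are single genes. Over the lists of neuronal and skin genes described below, the medians were 50.6 and 29.3 FPKM. The shares of summed FPKM of these lists were 1.15% and 2.07%. The labels call the tissue brain.

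The lens marker cryaa (ENSDARG00000053502, chromosome 1, 29096881 to 29100923), an α-crystallin, had 19.5, 20.6 and 31.5 FPKM. The glial filament gene gfap (ENSDARG00000025301, chromosome 3, 31792441 to 31804481) had 13.1, 12.8 and 11.3 FPKM. The endothelial VEGF receptor gene kdrl (ENSDARG00000105215, chromosome 14, 32983769 to 33044955) had 5.75, 5.41 and 6.78 FPKM. DMSO replicate 3 was the highest library for rho, elavl3, cryaa and kdrl and the lowest for krt4 and gfap, also after both rescalings, except that elavl3 was highest in DMSO replicate 1 after median-ratio scaling. The coefficient of variation (CV, the SD as a percentage of the mean) was 32.7% for krt4, 27.9% for cryaa, 18.7% for rho, 15.6% for elavl3, 11.9% for kdrl and 7.93% for gfap.

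The genes of 36 lists drawn up for tissues and processes of the head give a wider picture, with 1008 of 1025 entries matched to the table. All 41 pan-neuronal genes were above 1 FPKM, with a median of 50.6 FPKM, and the list took 1.07%, 1.18% and 1.18% of the summed FPKM. The tubulin genes tuba1a (1294, 1320 and 1142 FPKM) and tuba1c (1062 ± 71.8 FPKM) led it. They were followed by tubb5, by sncb, which encodes β-synuclein (258, 329 and 347 FPKM), and by stmn1b, a microtubule regulator of growing axons (285, 306 and 297 FPKM). Tubulin genes are not limited to neurons. The lowest library was DMSO replicate 1 for 23 of the 41 genes, 28 after TPM rescaling and 20 after median-ratio scaling. Over all expressed genes it was the lowest in 37.1%, 46.1% and 31.5% on these scales.

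Of 22 genes that define transmitter types, 16 reached 1 FPKM and the median was 3.07 FPKM. Those of GABA signalling were the highest. The GABA transporter gene slc6a1b had 39.4, 47.8 and 59.9 FPKM, the vesicular transporter gene slc32a1 25.7, 30.8 and 32.7 FPKM, and the GABA synthesis genes gad1b and gad2 averaged 22.1 ± 4.91 and 14.8 ± 4.31 FPKM. The vesicular glutamate transporter gene slc17a6b averaged 9.93 ± 1.76 FPKM. In DMSO replicate 3 lay the highest value of 14 of the 16 expressed genes (16 after TPM rescaling, 10 after median-ratio scaling), and 5 differed more than 2-fold between the highest and lowest library. Over all 15153 expressed genes this 2-fold spread was passed by 1011, or 6.67%. The share of all expressed genes highest in DMSO replicate 3 was 50.9% as deposited, 64.7% in TPM and 32.2% after median-ratio scaling.

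Of 32 neural progenitor genes 31 were expressed, with a median of 37.5 FPKM. The highest were both table entries named sox4a, with means of 293 ± 23.3 and 215 ± 15.2 FPKM, then sox11b with 214, 209 and 197 FPKM and the proneural genes neurod1 (141, 157 and 176 FPKM) and neurod4 (120, 129 and 151 FPKM). None of the 31 expressed genes differed more than 2-fold between libraries. Of all genes at 30 to 100 FPKM, where the median of this list lies, 0.93% did. The count of the list is therefore near the general share. Of 19 glial genes, 14 were expressed. The radial glia fatty acid binding protein gene fabp7a led with 1126, 1314 and 1113 FPKM, ahead of the glutamate transporter gene slc1a2b (165, 175 and 209 FPKM) and the glutamine synthetase gene glulb (166, 142 and 139 FPKM). Of the myelin genes on this list, mbpb averaged 15.8 ± 1.08 FPKM and plp1a 14.1 ± 2.87 FPKM, whereas mbpa was under 0.1 FPKM and mpz averaged 0.160 ± 0.107 FPKM.

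All 24 regulators that pattern the forebrain and midbrain were expressed. They were led by the hypothalamic gene otpa (113, 138 and 116 FPKM), otx2b (109, 111 and 123 FPKM) and otpb (87.8, 92.3 and 73.0 FPKM). The telencephalic genes foxg1a and emx2 averaged 27.5 ± 1.29 and 33.7 ± 1.45 FPKM. Of 18 genes of the midbrain-hindbrain boundary and hindbrain, 16 were expressed, at a median of 8.29 FPKM. The boundary gene gbx2 had 21.0, 21.6 and 24.0 FPKM, and phox2bb, of visceral motor and sensory neurons, had 22.8, 23.6 and 18.7 FPKM.

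**Figure D2:**
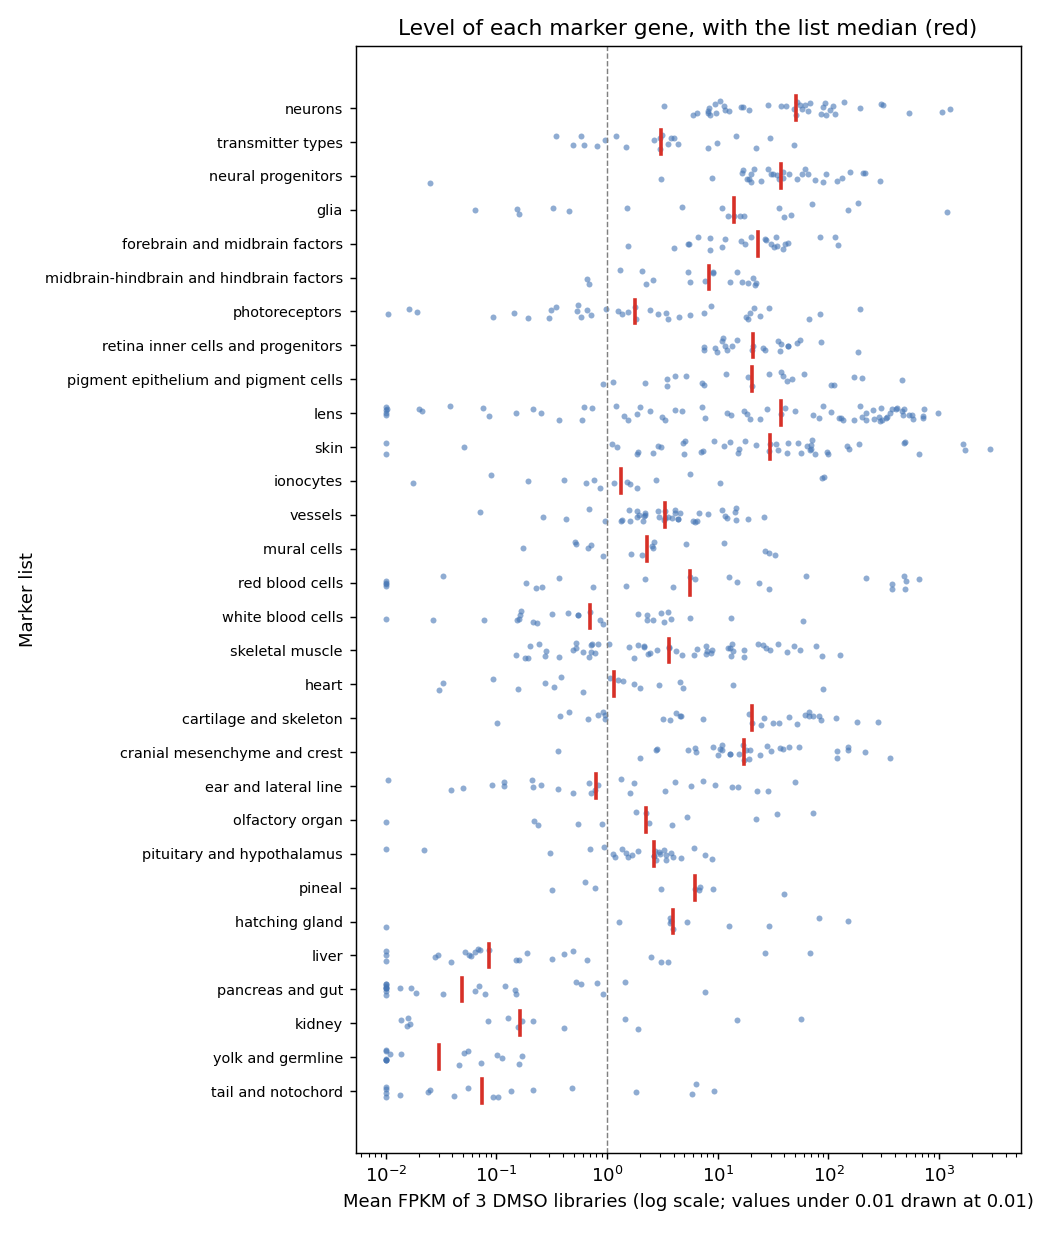
Mean FPKM over the 3 DMSO libraries (log axis) of every gene in 30 marker lists, with the list median in red and 1 FPKM dashed. Medians run from 50.6 FPKM for neurons to 0.0300 FPKM for yolk and germline genes.

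Hox genes, which mark positions from the hindbrain to the tail, were expressed from the low-numbered paralog groups. Of 25 genes in paralog groups 1 to 8, 15 reached 1 FPKM, while of 23 genes in groups 9 to 13 none did, and the highest of these was hoxa10b with 0.186 FPKM. Group 4 had the highest sum, with 41.8, 39.8 and 28.8 FPKM, of which hoxc4a gave 17.6, 17.3 and 10.0 FPKM. Group 5 followed with 19.3, 30.0 and 16.9 FPKM. Group 6 had 4.01, 10.9 and 4.54 FPKM, highest in DMSO replicate 2. In hoxb6b, the highest gene of that group, the values were 2.51, 6.22 and 2.58 FPKM. DMSO replicate 2 was the highest library in 9 of the 15 expressed hox genes, and in 10 after either rescaling. This library was the highest in 19.96% of all expressed genes as deposited, 16.3% in TPM and 32.1% after median-ratio scaling. How far back each head was cut is not given.

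**Figure D3:**
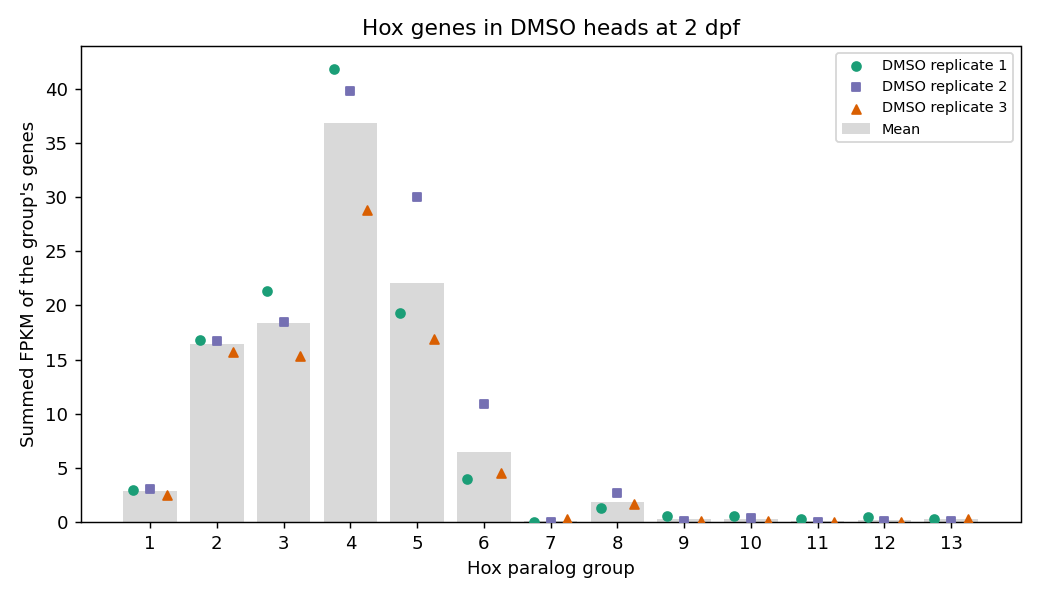
Summed FPKM of the hox genes of each paralog group, as the mean (bars) and in each DMSO library (points). Group 4 is the highest with sums of 41.8, 39.8 and 28.8 FPKM, groups 9 to 13 lie near 0, and DMSO replicate 2 stands above the others in groups 5 and 6.

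Among 37 photoreceptor genes, 22 were expressed and the list took 0.0925%, 0.111% and 0.145% of the summed FPKM. The highest was crx, with 159, 200 and 220 FPKM, followed by otx5 with 80.8, 81.3 and 89.1 FPKM, rho, and the rod factor gene nr2e3 with 26.6, 30.7 and 30.3 FPKM. The cone factor gene six7 averaged 24.3 ± 2.98 FPKM.

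Of 9 visual opsin genes, 5 reached 1 FPKM, and rho was the highest. The red-cone opsin gene opn1lw2 had 8.69, 17.3 and 32.8 FPKM. The UV-cone opsin gene opn1sw1 had 3.2, 5.45 and 14.0 FPKM, and the blue-cone opsin gene opn1sw2 1.35, 3.15 and 5.70 FPKM. These 3 cone opsins were lowest in DMSO replicate 1 and highest in DMSO replicate 3. On all 3 scales, DMSO replicate 3 was the highest library for all 5 expressed visual opsins. The 2-fold spread was passed by 4 of the 5 expressed opsins, against 6.67% of all expressed genes. The green-cone opsin gene opn1mw1 had 0.509, 1.33 and 1.91 FPKM, and would not count as expressed without DMSO replicate 3. The green-cone copies opn1mw3 and opn1mw4 were under 0.1 FPKM, and the second red-cone copy, opn1lw1, had 0.0757, 0.170 and 0.338 FPKM. Near-identical opsin copies lie in tandem and their reads may be split between them.

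DMSO replicate 3 was the highest library in 20 of the 22 expressed photoreceptor genes, 21 after TPM rescaling and 18 after median-ratio scaling, where it was the highest in 50.9% of all expressed genes as deposited and in 64.7% and 32.2% after these rescalings. Of the 22, 7 passed the 2-fold spread. The pineal organ, which has its own photoreceptors, was visible through exorh, its rod-like opsin gene, with 5.79, 5.92 and 6.85 FPKM, and through aanat2, the melatonin rhythm enzyme gene, with 2.57, 3.00 and 3.58 FPKM.

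All 23 genes of inner retinal cells and retinal progenitors were expressed, with a median of 21.0 FPKM. The bipolar cell gene vsx1 had 146, 175 and 228 FPKM, isl1 72.6, 84.0 and 98.9 FPKM, and the eye field gene six3b 47.9, 55.4 and 62.6 FPKM. The Müller glia and pigment epithelium gene rlbp1a averaged 52.5 ± 4.54 FPKM. The highest library was DMSO replicate 3 in 18 of the 23 genes, and in 21 after TPM rescaling, but in 9 after median-ratio scaling, where DMSO replicate 2 was the highest in 11. Among all expressed genes DMSO replicate 3 was the highest in 50.9%, 64.7% and 32.2% on these scales. DMSO replicate 2 was the highest in 32.1% after median-ratio scaling.

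Genes of melanin synthesis were high in these embryos kept in PTU, which inhibits the enzyme tyrosinase. The melanosome gene tyrp1b had 502, 415 and 467 FPKM, dct 218, 185 and 196 FPKM, and pmela, of the melanosome fibrils, 202, 155 and 158 FPKM. The tyrosinase gene tyr had 25.6, 15.9 and 19.5 FPKM. The pterin synthesis gene gch2, of yellow pigment cells, averaged 112 ± 10.4 FPKM, and rpe65a, of the visual cycle, 29.3 ± 5.63 FPKM. Of the 23 genes on the pigment list, 22 were expressed.

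The lens took 2.5%, 2.53% and 3.05% of the summed FPKM through 73 genes, of which 56 were expressed and 10 were under 0.1 FPKM, among them cryaba, crybb3, crygm2a and crygm2b. Most of the share came from γ-crystallins of the M2d type, a family expanded in fish. All 21 of these genes lie on chromosome 9 between 22091161 and 22339582, all were expressed, and together they took 1.69%, 1.58% and 1.85% of the summed FPKM. Within the cluster the levels ranged more than 10-fold. The highest, crygm2d8, had 1093, 885 and 924 FPKM, and crygm2d10 had 781, 687 and 714 FPKM. The lowest, crygm2d11, had 70.5, 69.0 and 76.5 FPKM. These copies are close to identical in sequence, so how their shared reads were assigned limits the value of each copy but less so their sum.

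The 14 β-crystallin genes took 0.619%, 0.722% and 0.907% of the summed FPKM, and 12 were expressed. The highest, crybb1, had 612, 703 and 851 FPKM. Next came cryba1l1 (458, 528 and 625 FPKM), cryba2b (444, 477 and 524 FPKM) and cryba1b (407, 470 and 524 FPKM). All 12 expressed genes were highest in DMSO replicate 3, also after TPM rescaling, and 10 were after median-ratio scaling. Among all expressed genes DMSO replicate 3 was the highest library in 50.9%, 64.7% and 32.2% on these scales. The α-crystallins, which serve as chaperones, were far lower. Of 3 genes only cryaa was expressed, and cryabb and cryaba averaged 0.213 ± 0.110 and under 0.1 FPKM. Lens membrane genes were at intermediate levels, with 75.4, 84.6 and 107 FPKM for the aquaporin gene mipb and 95.3, 97.4 and 123 FPKM for lim2.4.

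The skin list took 2.66%, 1.84% and 1.70% of the summed FPKM, with 44 of 47 genes expressed at a median over the list of 29.3 FPKM. Below krt4, the type I keratins cyt1 (2333, 1577 and 1261 FPKM) and cyt1l (2266, 1441 and 1197 FPKM) were the highest. The basal epidermal keratin gene krtt1c19e had 846, 563 and 557 FPKM, and krt91 and krt5 averaged 494 ± 136 and 487 ± 140 FPKM. Keratin genes form close families, and reads of near-identical copies may be split. The keratins krt93, krt95 and krt98 were under 0.1 FPKM.

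DMSO replicate 1 was the highest library in 38 of the 44 expressed skin genes, 33 after TPM rescaling and 36 after median-ratio scaling, and it was the highest in 29.1%, 18.9% and 35.7% of all expressed genes on these scales. The median expressed skin gene was 0.33 higher in DMSO replicate 1 than in the mean of the others on the log2(FPKM + 1) scale. The same library was the highest in 8 of 10 expressed hatching gland genes, 6 after TPM rescaling and 8 after median-ratio scaling. The hatching enzyme gene he1.1 had 15.3, 15.6 and 7.35 FPKM, lowest in DMSO replicate 3. The secretory regulator gene xbp1 (175, 147 and 131 FPKM) and cd63 (85.9, 80.3 and 81.4 FPKM) are on the same list but are expressed in many cells.

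Ionocytes, the acid and salt handling cells of the skin, were faint. Of 16 genes 9 were expressed, and the proton pump subunit genes atp6v1aa and atp6v1ba (90.7 ± 5.15 and 87.5 ± 2.58 FPKM), which are used in all cells, led the list. The ionocyte factor genes foxi3b and foxi1 had means of 1.52 ± 0.387 and 1.6 ± 0.189 FPKM.

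Vessel genes were expressed at low levels. Of 41 genes 36 reached 1 FPKM, at a median over the list of 3.34 FPKM, and the list took 0.0456%, 0.0474% and 0.0550% of the summed FPKM. The tight junction gene cldn5b had 26, 25.0 and 27.9 FPKM, and its relative cldn5a 6.21, 6.88 and 11.5 FPKM. The apelin receptor gene aplnrb had 17.9, 19.4 and 18.9 FPKM, tal1, of the blood and vessel lineage, 12.5, 16.2 and 15.4 FPKM, plvapb 13.4, 15.7 and 14.5 FPKM, and the guidance receptor gene robo4 11.9, 14.6 and 16.1 FPKM. Of the 36, 19 were highest in DMSO replicate 3, a count that was 30 after TPM rescaling and 14 after median-ratio scaling. As deposited this is near the 50.9% of all expressed genes. Of 16 genes of the cells that wrap vessels, 10 were expressed. They were led by notch3 (35.5, 26.3 and 36.9 FPKM), foxc1b and foxc1a, which mesenchyme also expresses, while pdgfrb, the receptor that defines these cells, averaged 1.66 ± 0.380 FPKM.

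Blood was present. The red cell list took 0.795%, 0.725% and 0.624% of the summed FPKM, nearly all from embryonic globins. Of 10 embryonic globin genes, 7 on chromosome 3 (55114097 to 55147788) and 3 on chromosome 12 (20339413 to 20353541), 9 were expressed. The β-type gene hbbe1.3 was the highest with 781, 674 and 505 FPKM, hbbe1.2 had 581, 529 and 396 FPKM and the α-type gene hbae3 540, 513 and 421 FPKM. The single embryonic gene below 1 FPKM was hbae5 (0.128, 0.403 and 0.0220 FPKM). The 5 adult globin genes lie next to the embryonic ones on chromosome 3 (55091230 to 55104310). Of these, 4 were listed at 0 in all libraries and hbaa1 had 0.0985 FPKM in DMSO replicate 1 and 0 in the others. DMSO replicate 1 was the highest library in all 9 expressed embryonic globins on all 3 scales. Among all expressed genes it was the highest in 29.1% as deposited, 18.9% in TPM and 35.7% after median-ratio scaling. Globin copies are similar in sequence and their separate values are uncertain.

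Of 27 white cell genes 11 were expressed, at a median over the list of 0.695 FPKM. The apolipoprotein gene apoeb, a microglia gene that other head cells also express, had 64.9, 54.8 and 56.9 FPKM. The lysozyme gene lyz had 16.6, 13.9 and 9.14 FPKM, coro1a 6.59, 5.80 and 4.27 FPKM, and mmp9 3.08, 5.04 and 3.11 FPKM. The macrophage gene mpeg1.1 averaged 2.29 ± 0.311 FPKM.

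Skeletal muscle genes took 0.162%, 0.166% and 0.184% of the summed FPKM, with 38 of 56 genes expressed and none under 0.1 FPKM. The actin gene actc1b had 122, 122 and 140 FPKM, the fast myosin light chain gene mylpfa 72.7, 81.6 and 78.3 FPKM, the calcium buffer gene pvalb2 56.6, 58.9 and 49.7 FPKM, and the muscle creatine kinase gene ckma 48.9, 48.0 and 48.9 FPKM. The tropomyosin gene tpm3 (91.2, 86.7 and 82.3 FPKM) is also used outside muscle. Of 18 heart genes 10 were expressed, led by one of 2 entries named actc1a (79.8, 87.2 and 99.6 FPKM), an actin that skeletal muscle shares. The heart myosin gene myl7 had 5.53, 3.98 and 4.03 FPKM, and myh6, gata4 and gata6 were under 0.1 FPKM. The list entry vmhc was not matched. Outside the list, the slow and cardiac myosin gene myh7 had 3.28, 4.48 and 9.79 FPKM, highest in DMSO replicate 3.

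Skeletal and mesenchymal genes were prominent. Of 31 cartilage and skeleton genes 23 were expressed, led by the cartilage collagen gene col2a1a (248, 275 and 321 FPKM), the matrix gene matn4 (163, 175 and 207 FPKM), col9a2 (111, 119 and 123 FPKM), col2a1b and fmoda. Of 33 genes of cranial mesenchyme and neural crest 32 were expressed, with sparc at 400, 350 and 333 FPKM, the fibrillar collagen gene col1a1a at 249, 190 and 209 FPKM, and postnb, a matrix protein gene, at 113, 85.8 and 159 FPKM. DMSO replicate 2 was the lowest library in 23 of these 32 genes, 25 after TPM rescaling and 13 after median-ratio scaling, where DMSO replicate 3 was the lowest in 16. Over all expressed genes DMSO replicate 2 was the lowest in 39.6%, 39.8% and 28.2% on these scales.

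Sense organs and glands gave small signals. In the ear, the otolith genes stm and otomp had 49.1, 47.2 and 54.8 FPKM and 31.2, 31.1 and 23.3 FPKM, while the hair cell genes tmc2b, cdh23 and loxhd1b, together with otol1a, were under 0.1 FPKM. In the olfactory organ, ompa, of mature sensory neurons, averaged 2.24 ± 0.375 FPKM, and the list was led by ebf3a (72.4, 70.0 and 75.7 FPKM), which other neurons express. Of 27 pituitary and hypothalamic genes 22 were expressed. The pituitary hormone genes pomca, prl and gh1 averaged 6.14 ± 0.572, 3.81 ± 0.845 and 3.26 ± 0.595 FPKM, and the gonadotropin subunit genes fshb and lhb were under 0.1 FPKM. DMSO replicate 1 was the lowest library in 16 of the 22, 17 after TPM rescaling and 13 after median-ratio scaling, against 37.1%, 46.1% and 31.5% of all expressed genes.

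Genes of trunk tissues were mostly low. No trunk was sequenced for comparison, so low values do not show that trunk tissue was absent. Of 24 pancreas and gut genes 2 were expressed and 15 were under 0.1 FPKM, including ins, gcga, sst2 and pdx1. The higher of the 2, ptf1a (7.85, 7.39 and 7.52 FPKM), is also a hindbrain and retina gene. Of 16 yolk and germline genes none was expressed and 12 were under 0.1 FPKM, including the yolk protein genes vtg1, vtg2, vtg3 and vtg4. Yolk protein genes are transcribed in the mother, so their low values do not show whether yolk or trunk was present. Of 18 tail and notochord genes 4 were expressed, among them shha (8.60, 9.39 and 9.81 FPKM), which the head also uses. Of 14 kidney genes 4 were expressed, led by lhx1a and pax8, which brain and ear share.

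The liver list differed between libraries. Of 25 genes 13 were under 0.1 FPKM, including fabp10a, apom, ttr and serpina1, and rbp4 (54.6, 75.3 and 74.7 FPKM) and prox1a (28.5, 23.3 and 28.2 FPKM) are expressed in the head. The lipoprotein genes apoa1a, apoa2 and apoa1b were much higher in DMSO replicate 3 than in the others. For apoa1a the values were 0.0688, 0.305 and 10.3 FPKM, for apoa2 1.11, 0.902 and 7.18 FPKM and for apoa1b 0.196, 0.198 and 7.08 FPKM. The plasma protein genes apoc1 (0.158, 0.330 and 1.48 FPKM) and tfa, for transferrin (0.0249, 0.112 and 1.32 FPKM), had their highest value in the same library. The liver cell gene fabp10a was listed at 0 in every library. Liver and the yolk syncytial layer both use these lipoprotein genes, and the source of the values in DMSO replicate 3 was not tested.

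Genes of general processes also differed by library. All 42 cell cycle genes were expressed, and DMSO replicate 1 was the highest library in 36 of them, 34 after TPM rescaling and 39 after median-ratio scaling. Among all expressed genes this library was the highest in 29.1%, 18.9% and 35.7% on these scales. The replication clamp gene pcna had 394, 325 and 263 FPKM, one of 2 table entries named rrm2, a ribonucleotide reductase subunit, 188, 174 and 134 FPKM, and the helicase gene mcm7 119, 109 and 95.4 FPKM. Of 34 immediate-early genes, which respond within minutes to stimulation, 32 were expressed. Of these, 22 were highest in DMSO replicate 3, 24 after TPM rescaling and 15 after median-ratio scaling. The share of all expressed genes highest in DMSO replicate 3 was 50.9%, 64.7% and 32.2% on these scales. The highest immediate-early genes were ier5 (100, 101 and 90.5 FPKM), junbb (57.0, 63.5 and 72.0 FPKM), cebpb (45.1, 56.4 and 57.6 FPKM), btg2 and cebpd.

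Of 34 heat shock genes 31 were expressed, led by hspa8, hsp90ab1 (1439, 1313 and 1129 FPKM), and the chaperones of the endoplasmic reticulum hspa5 (214, 155 and 148 FPKM) and hsp90b1 (210, 155 and 138 FPKM). Of 39 clock genes 36 were expressed, with the cryptochrome gene cry3a at 45.7, 41.4 and 58.3 FPKM, nfil3-5 at 45.6, 45.3 and 52.7 FPKM and tefa at 28.9, 33.4 and 29.3 FPKM. Of 33 glycolysis genes 29 were expressed, led by gapdhs (458, 488 and 483 FPKM), ldhba (284, 268 and 252 FPKM) and aldoaa (236, 224 and 206 FPKM).

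**Figure D4:**
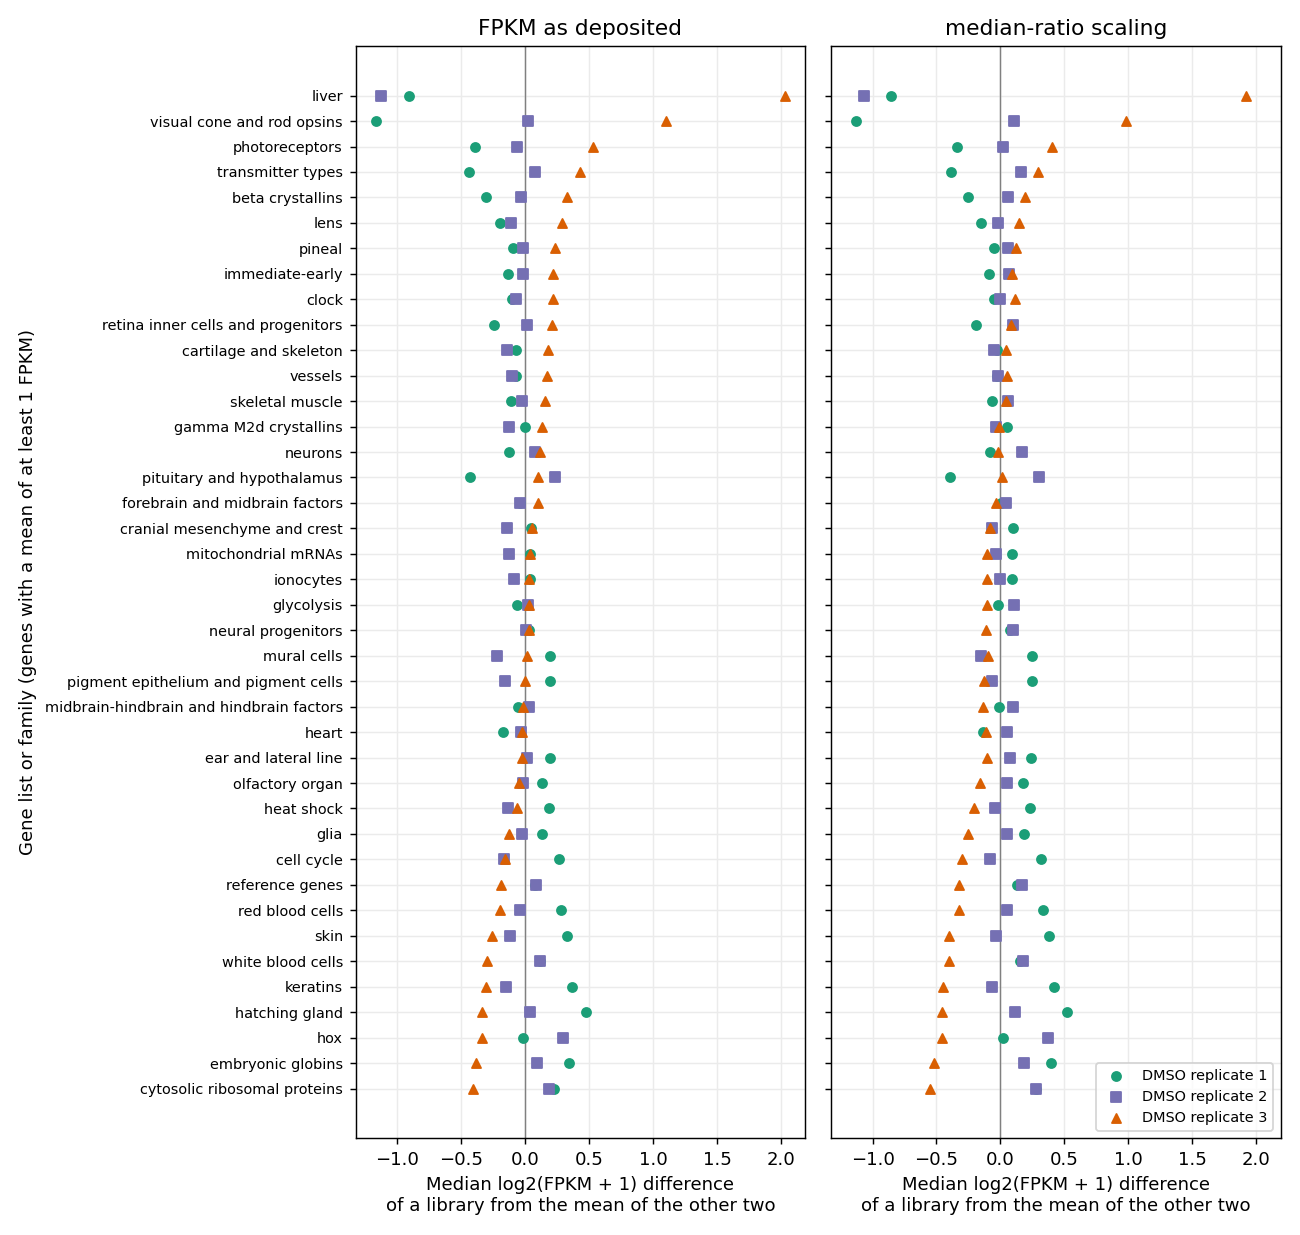
Median difference on the log2(FPKM + 1) scale of each DMSO library from the mean of the other two, over the expressed genes of each list or family with at least 5 of them, for FPKM as deposited (left) and after median-ratio scaling (right). Photoreceptor, opsin and liver genes lie to the right in DMSO replicate 3 in both panels. The liver genes apoa1a and apoa1b and the opsin gene opn1mw1 would not reach a mean of 1 FPKM without DMSO replicate 3. For liver and opsins the filter itself therefore favours that library. Skin, keratin, hatching gland and embryonic globin genes lie to the right in DMSO replicate 1 in both panels. Lists near 0 such as neurons and vessels change order between the panels.

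The 3 libraries were close to each other over most genes. The median absolute difference between DMSO replicates 2 and 1 was 0.16 on the log2(FPKM + 1) scale, against 0.20 between replicates 3 and 1 and 0.18 between replicates 3 and 2. These include a general offset, as DMSO replicate 3 was higher than replicate 1 by a median of 0.08 and than replicate 2 by 0.10. DMSO replicate 3 was the library farthest from the median of the 3 in 40.1% of expressed genes, replicate 1 in 32.3% and replicate 2 in 27.6%. The median CV over the 15153 expressed genes was 12.8%. It was 9.15% without DMSO replicate 3, 11.6% without replicate 2 and 10.7% without replicate 1. Each was lower than over all libraries, since fewer samples shrink a range, and the set of expressed genes also changed. The spread depended on level. The median CV was 21.0% at 1 to 3 FPKM, 13.7% at 3 to 10 FPKM, 9.15% at 10 to 30 FPKM and 7.79% at 30 to 100 FPKM, and it was higher again, 14.2%, at 1000 FPKM and above.

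Of the 1011 genes that passed the 2-fold spread, 722 were between 1 and 3 FPKM. In that class they made up 18% of the genes, and at 10 to 30 FPKM 0.917%. The count was 299 without DMSO replicate 3, 581 without replicate 2 and 517 without replicate 1. Genes that overlap another gene passed it in 299 of 4145 cases (7.21%), against 712 of 11008 (6.47%) for genes that do not.

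**Figure D5:**
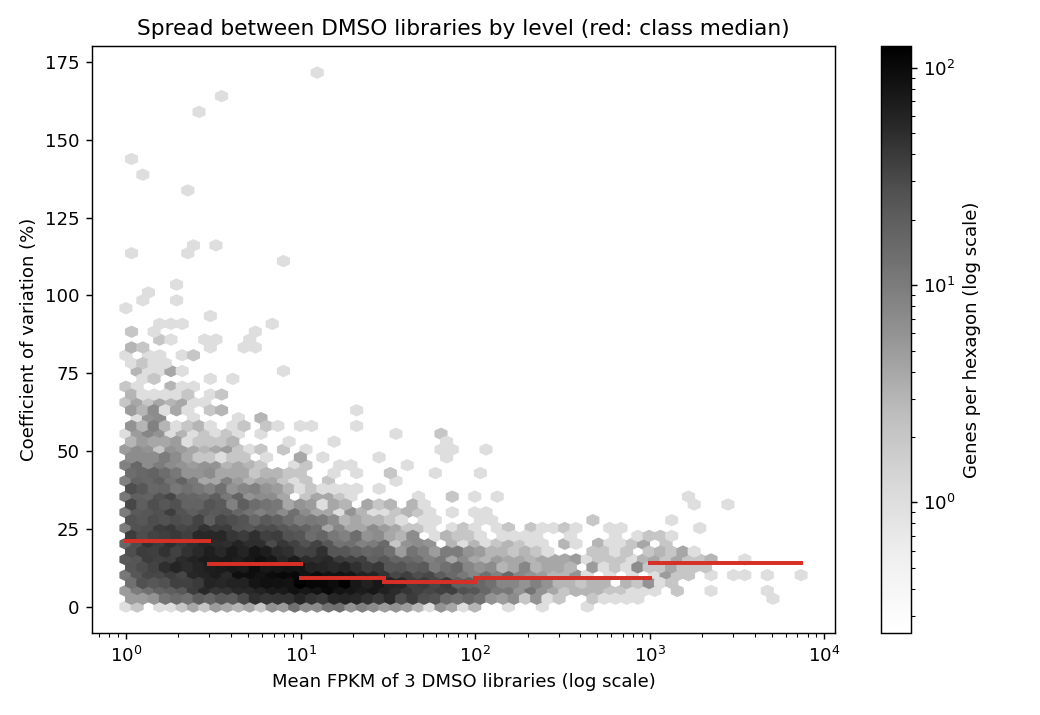
CV over the 3 DMSO libraries against the mean FPKM (log axis) of the 15153 expressed genes, shaded by the number of genes, with the median CV of 6 level classes in red. The medians fall to 7.79% at 30 to 100 FPKM and are 14.2% at 1000 FPKM and above. Near the top lies mbd3b, with a mean of 12.4 FPKM and a CV of 172%.

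Ratios between libraries were ranked among genes with a mean of 5 FPKM or more and a symbol that is not a clone name. The largest was that of mbd3b, a subunit gene of the NuRD chromatin complex (chromosome 22, 20246587 to 20309283, GRCz11), with 0.0782, 0.151 and 37.0 FPKM. It was therefore almost absent from 2 libraries and well above the median gene in DMSO replicate 3. The transcription cofactor gene vgll4b was low in DMSO replicate 2 alone, with 8.60, 0.268 and 8.43 FPKM. The neuroendocrine chaperone gene scg5 was low in DMSO replicate 3, with 12.3, 6.60 and 0.607 FPKM. No other gene overlaps mbd3b. The mitochondrial gene tamm41, inside vgll4b on the same strand, did not share its pattern, with 12.2, 13.2 and 13.9 FPKM. The gene grem1a, which overlaps scg5 on the same strand, had 0.114, 0.180 and 0.289 FPKM, too low for such a comparison.

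The rest of the 15 genes with the largest ratios in this ranking differed 2.87-fold to 4.38-fold between the highest and lowest library. They were highest in DMSO replicate 3 for opn1sw1, opn1lw2, EPB41L2, RNF5, nupr1b and myh7, a slow and cardiac myosin gene (3.28, 4.48 and 9.79 FPKM). DMSO replicate 2 was the lowest library for tenm3, a synaptic adhesion gene (8.66, 2.11 and 7.98 FPKM), EPB41L2 (43.5, 13 and 49.8 FPKM), fkbp5, a glucocorticoid-responsive chaperone gene (15.4, 4.67 and 11.5 FPKM), and RNF5 (9.51, 3.46 and 11 FPKM). The 7SK RNA gene rn7sk, whose RNA carries no poly(A) tail, had 11.1, 6.75 and 3.12 FPKM. DMSO replicate 1 was the lowest for dap1b (5.91, 18 and 15.5 FPKM), a symbol that 2 table entries carry, and DMSO replicate 3 for ndrg3a (33.1, 41.4 and 14.1 FPKM) and ecrg4b (15.0, 9.75 and 5.24 FPKM).

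At the other end, the 10 steadiest genes averaging 10 FPKM or more had a CV of 0.0520% to 0.349%, with clone-named genes again left out. The splicing-related gene cwf19l1 had 14.9 FPKM in every library, and ap3s2, of the AP-3 adaptor, had an average of 40.1 FPKM. The chromatin gene ss18 had 91.8, 91.5 and 92.0 FPKM and lmo4b, a transcription cofactor gene, 76.2, 76.6 and 76.3 FPKM. Others among them were hddc2, mpped2, ndel1a, sgsm3 and cdc73. The CV over 3 libraries is imprecise for a single gene. This ranking holds for FPKM as deposited. The median-ratio factors were 0.983, 0.966 and 1.07, so values that are equal in FPKM differ between libraries after that scaling.

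Genes of a reference list, not all in use as normalizers, spread more than the genes above, which were picked for a small CV. Over 33 matched reference genes the median CV was 11.9%, against 12.8% over all expressed genes. The median level of the list was 526 FPKM, and all genes at 100 to 1000 FPKM had a lower median CV, 9.28%. The CV was 9.43% for eef1a1l1, 9.58% for actb2, 11.4% for actb1, 13.4% for rpl13a and 14.5% for rplp0. Among the steadier ones was tmsb4x (4.2%), and b2ml was the least steady (42.3%), with 2.68, 3.85 and 6.20 FPKM. The high-level references eef1a1l1, actb2 and rplp0 were lowest in DMSO replicate 3.

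Of 2222 genes annotated as transcription factors or cofactors, 1394 were expressed (62.7%), and together they took 5.5%, 5.70% and 6.21% of the summed FPKM. The highest was ybx1, a nucleic acid binding protein gene, with 1380, 1315 and 1092 FPKM, ahead of nme2b.1, hmga1a (997, 928 and 870 FPKM) and hmgb2b, which encode chromatin proteins. Also high were sox4a, sox11b, crx, vsx1, neurod1, neurod4 and otpa.

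The zebrafish genome kept many gene duplicates from a whole-genome duplication in the fish lineage, often named with the suffixes a and b. In 2781 pairs whose symbols differ only in that letter, both copies were expressed in 1588, 1 copy in 784 and neither in 409. The ancestry of the pairs was not checked. Among the 1588, the median difference in level was 2.28-fold, 670 pairs differed less than 2-fold and 136 at least 10-fold. In 1305 of them the 3 libraries of 1 copy did not overlap those of the other. The same count was not made for pairs of unrelated genes, so it does not set duplicates apart.

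The widest gap was that of the ribosomal protein genes rps8a (1200, 1173 and 858 FPKM) and rps8b (0.741, 1.19 and 1.12 FPKM). It was followed by faua, with a mean of 1213 ± 204 FPKM, and faub with 5.84 ± 0.330 FPKM. In the brain creatine kinase pair the b copy was higher, with 931, 961 and 831 FPKM for ckbb and 5.03, 5.78 and 5.78 FPKM for ckba. The radial glia gene fabp7a exceeded fabp7b (10.4, 8.5 and 12.1 FPKM) 115-fold on the means, the phosphate carrier gene slc25a3b exceeded slc25a3a 114-fold, and eif5a exceeded eif5b 97.5-fold. The eif5 symbols name different translation factors and are not duplicates of each other.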

How the data were processed

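RNA of 3 DMSO libraries was described, grouped by the treatment in the labels, with replicate numbers from the titles. The authors deposited FPKM, 1 value per gene and library; per the submitters' processing notes fastp, HISAT2, featureCounts, StringTie and the build GRCz11 were used, with no versions or roles. Gene length and position (other units) are deposited in the same table. Whether low FPKM are whole multiples of 1 fragment was checked: within 0.1 multiple, 23.3% to 25.0% were, where an arbitrary step gives 20% and multiples up to 20.5 were examined, so counts were not recovered, the depth is unknown, and no interval for counting error is given. FPKM does not correct for a few very high genes, which move all other values of a library.

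Means, SDs, CVs, shares of summed FPKM and ratios were computed in Python 3.11.15 with numpy 2.4.6 and pandas 2.3.3; expressed means a mean of at least 1 FPKM. No test was made, since the libraries form a single group. The functions were tested on simulated data. Median-ratio factors were 0.983, 0.966 and 1.07. Rescaling to TPM raised the median gene by 0.98, 1.01 and 1.10 in DMSO replicates 1, 2 and 3 (log2 after adding 1).

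Lists were written by hand from general knowledge, and the members and lists were chosen with earlier results of these data known. Named genes are the 6 markers, the 30 highest genes, the 5 highest of each list and up to 4 of its members under 0.1 FPKM, the 15 largest ratios, the 10 smallest CVs, high non-coding genes, 6 a/b pairs, and hox, crystallin and globin genes. Genes with a clone name or no symbol were left out of the rankings of ratios and of CVs. Other list members were named after their values were seen. The 17 unmatched list entries and promoter sequences were not used here. Some named genes are not reported here.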

Additional observations from a re-analysis of the deposited data

How the results depend on the processing

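No paired analysis was possible because a single group was described and no result comes from a test. Of the results on all genes, pairs and 7 main tissue lists, 70 values moved less than the spread between libraries (counts: less than 1.5 times) under an alternative and 27 moved more. The 70 include shares of summed FPKM under TPM and median-ratio scaling. Both multiply a library by 1 factor, so these shares could not change. With TPM rescaling the cut stayed at 1, and 17411 genes and 1923 pairs passed it, against 15153 and 1588 in FPKM. Over these larger sets the median CV was 15.8% and the median log2 difference 0.23. In TPM 2304 genes were over 2-fold and 231 pairs at least 10-fold apart. TPM values are larger than FPKM in all 3 libraries, so a cut of 1 TPM admits genes of lower FPKM. A cut of 0.5 FPKM gave 17138 genes. The cause of the other changes was not tested. Weighting FPKM by gene length gave 9.39% for the 10 highest genes and 99.5% for protein-coding genes, and for lists 0.276% (glia), 1.68% (lens), 0.0773% (vessels) and 0.203% (skeletal muscle). With a mean of at least 5 FPKM the median CV was 9.98%, the log2 difference 0.16 and 133 genes passed 2-fold. These were 40 of 2344 genes that overlap another gene and 93 of 6518 that do not. With no filter the median CV was 21.1%, the log2 difference 0.13 and 8546 of 25836 genes passed 2-fold. A pseudocount of 0.1 gave a log2 difference of 0.21, and 1 added before the ratio left 275 genes over 2-fold. At 5 FPKM, 762 pairs had both copies and 29 were at least 10-fold apart. Leaving out each library in turn gave a median CV of 9.15% to 11.6%, 299 to 581 genes over 2-fold (fewer samples shrink a range) and log2 differences of 0.16 to 0.20. Median-ratio scaling moved none of these results by more than that spread, but shares could not change under it. The promoter search planned was not run. The unknown depth limits all genes near 1 FPKM.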
